A study of Mus musculus with 8 samples.

Results

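The leukocyte lineage microRNAs (miRNAs) mmu-miR-142-3p, mmu-miR-142-5p, mmu-miR-223, mmu-miR-150, mmu-miR-342-3p and mmu-miR-511 were read on arrays from kidneys of outbred ICR mice 7 days after ligation of one ureter. They were chosen by name, as miRNAs known from myeloid or lymphoid cells, and are 6 of the 611 mouse miRNAs on the array. The groups were 4 control kidneys, which per the labels were contralateral and not obstructed, and 4 UUO kidneys, whose ureter was obstructed (unilateral ureteral obstruction). Kidneys of unoperated mice were not analysed here. The labels do not say which kidneys shared a mouse, and p-values measure only the spread between these samples. Signals are given on a scaled intensity, on which 1 is the array's 75th percentile over the probes that were above background on all 8 arrays. A miRNA was tested where every kidney of 1 or both groups gave a signal above background, and called at an adjusted p under 0.05 in limma, a linear model fitted over all 222 tested miRNAs.

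A miRNA is a short RNA that guides Argonaute proteins to messenger RNAs, which it recognises mainly through its seed, bases 2 to 8. Some miRNAs are made almost only in blood-derived cells, and are measured in a whole organ through the blood cells it holds. miR-142 is made throughout the haematopoietic lineages, miR-223 is abundant in neutrophils and monocytes, miR-150 in mature lymphocytes, and miR-342-3p is found in several leukocyte types. miR-511 lies within Mrc1, the gene of the macrophage mannose receptor. A blocked kidney is known to be entered by macrophages and other leukocytes. In bulk tissue, fewer cells of a type and less RNA per cell cannot be told apart.

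Mature sequences are shown for the members that carry the results, to show how their seeds compare. They are from RefSeq (GRCm38.p6), where 4 of 6 members were matched, with miR-142 listed as miR-142a and miR-223 taken as the 3p strand. Capitals mark the seed.
miR-142-3p: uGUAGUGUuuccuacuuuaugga
miR-142-5p: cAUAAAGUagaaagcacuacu
miR-223: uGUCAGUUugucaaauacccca
miR-342-3p: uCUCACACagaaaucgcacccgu
The 4 seeds differ, and none of them is shared with another mature mouse miRNA among the 1738 of the RefSeq table.

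The strands miR-142-5p (chr11:87756867-87756887, + strand) and miR-142-3p (chr11:87756903-87756925, + strand) come from 1 hairpin of 64 bases. It is shown because both strands were measured, and capitals mark the 2 strands.
Mir142 hairpin: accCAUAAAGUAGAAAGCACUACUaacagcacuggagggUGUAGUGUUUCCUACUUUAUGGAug
miR-223 (chrX:96242884-96242905, + strand) overlaps a long non-coding RNA gene, F630028O10Rik. miR-342-3p (chr12:108658680-108658702, + strand) lies within Evl, a gene of an actin regulator. These annotations are of GRCm38.p6. The array files give no probe sequences, so the strand behind each name follows the older naming of the array.

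Obstructed kidney 2 was unlike its group. Over the 222 tested miRNAs its profile correlated at 0.964 on average with contralateral kidneys, against 0.887 with its own group. Kidney 2 of both groups was also set apart by erythroid miRNAs, which mark red blood cells. miR-451 measured 44.0 in contralateral kidney 2 and 24.0 in obstructed kidney 2, against 5.08 to 7.48 on the other 6 arrays. miR-486 measured 0.406 and 0.274 there, against 0.0453 to 0.0817 elsewhere, and miR-144 was above background only on those 2 arrays. The part of red blood cells in the results below was not tested, and results are given with all arrays and without kidney 2. Of 4 kidney tubule miRNAs, miR-192, miR-194 and miR-204 were detected on all 8 arrays and miR-215 on none.

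**Figure D1:**
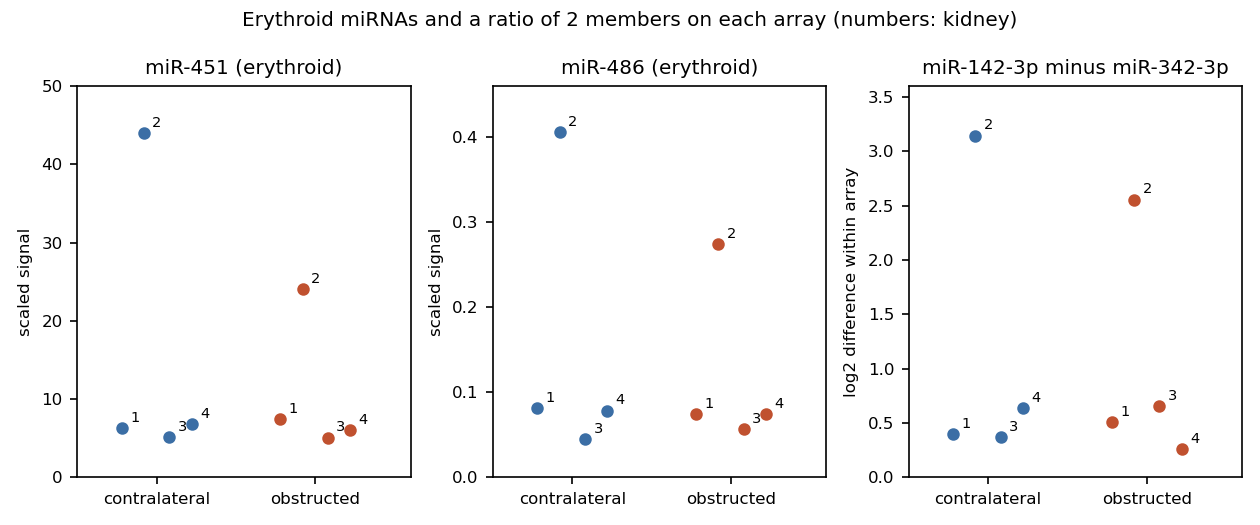
Scaled signal of the erythroid miRNAs miR-451 and miR-486 (left and middle, linear axes) and the log2 difference of miR-142-3p minus miR-342-3p within each array (right); each point is 1 array, labelled with its kidney number, for 4 contralateral and 4 obstructed kidneys. Kidney 2 of both groups lies above the other 6 arrays in each panel, for example at 44.0 and 24.0 for miR-451.

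mmu-miR-223, the myeloid member, measured 0.897, 1.06, 0.964 and 0.909 in contralateral kidneys 1 to 4. It measured 3.94, 0.813, 3.83 and 3.77 in obstructed kidneys 1 to 4. Obstructed kidneys 1, 3 and 4 lay above every contralateral kidney, while obstructed kidney 2 lay below all of them, so the groups overlapped. The mean was 0.958 ± 0.0755 in contralateral and 3.09 ± 1.52 in obstructed kidneys (SD, n = 4 each). The log2 change was 1.45 ± 0.50 (SE), a 2.73-fold higher level, with a 95% interval from 0.30 to 2.60 and a limma adjusted p of 0.0837, which missed the threshold of 0.05. Without obstructed kidney 2 miR-223 rose by 2.01 ± 0.10 on the log2 scale, or 4.02-fold (limma adjusted p = 5.81e-05, n = 3 and 4).

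mmu-miR-142-3p, 1 strand of a hairpin made across blood lineages, measured 0.231, 0.650, 0.252 and 0.282 in contralateral kidneys 1 to 4. In obstructed kidneys 1 to 4 it measured 1.18, 0.380, 1.15 and 0.791. Here contralateral kidney 2 was the high control, and it lay above obstructed kidney 2 but below the other obstructed kidneys. The log2 change over 8 arrays was 1.31 ± 0.46 (SE, n = 4 each), or 2.49-fold, with a 95% interval from 0.26 to 2.37 and a limma adjusted p of 0.0851. Without obstructed kidney 2 it rose by 1.67 ± 0.38, or 3.18-fold (limma adjusted p = 0.0105). Without kidney 2 of both groups it rose by 2.01 ± 0.19, or 4.03-fold (limma adjusted p = 0.00140, n = 3 each).

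mmu-miR-342-3p, found in several leukocyte types, measured 0.175, 0.0735, 0.195 and 0.181 in contralateral kidneys 1 to 4. In obstructed kidneys 1 to 4 it measured 0.829, 0.0646, 0.729 and 0.660. Kidney 2 was the lowest of its group in both groups, in contrast to miR-142-3p, for which contralateral kidney 2 was the highest control. The log2 change was 1.46 ± 0.82 (SE, n = 4 each), or 2.75-fold, with a 95% interval from -0.44 to 3.36 and a limma adjusted p of 0.234. Without obstructed kidney 2 it rose by 2.34 ± 0.35, or 5.05-fold (limma adjusted p = 0.00191). With kidney 2 of both groups left out the rise was 2.01 ± 0.12, or 4.02-fold (limma adjusted p = 0.000406, n = 3 each).

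**Figure D2:**
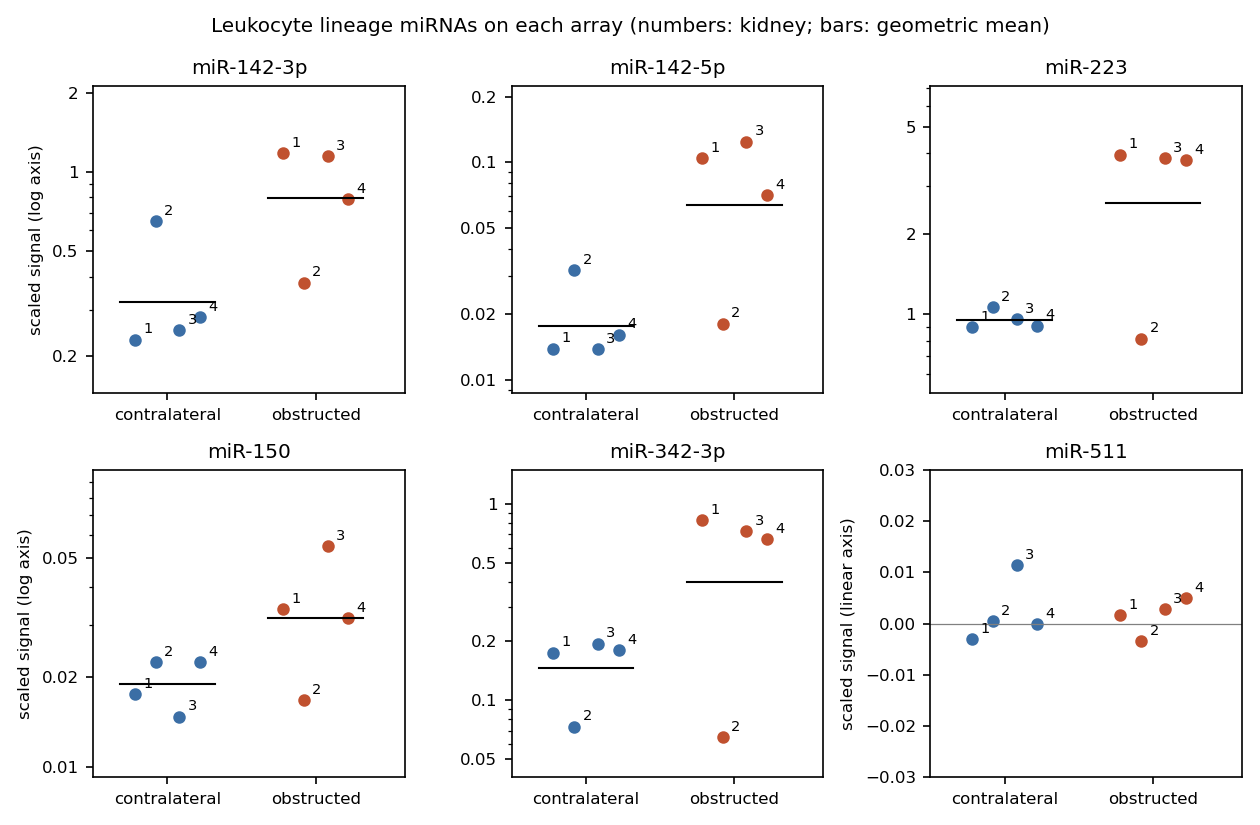
Scaled signal of the 6 leukocyte lineage miRNAs on each array (log axes, linear for miR-511); points are single arrays labelled with the kidney number, and bars are geometric means of 4 arrays. Obstructed kidneys 1, 3 and 4 lie above all contralateral kidneys in every panel but that of miR-511, and obstructed kidney 2 does not.

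Over all 8 arrays, 0 of the 3 tested members were called (limma, 2 at an unadjusted p under 0.05), beside 14.9% of the 222 tested miRNAs called in either direction, 1.35% called higher and 36.5% at an unadjusted p under 0.05. Their median change was 1.45, against -0.14 over all tested miRNAs. All 3 were above background on all 8 arrays, so none entered the test through 1 group alone. The obstructed group lay wholly above the contralateral group for 0 of 3, against 1.8% of all tested miRNAs. Without obstructed kidney 2 all 3 rose, where 20.7% of all tested miRNAs were called higher and 50.9% were called in either direction. With it left out, 23.9% of all tested miRNAs had obstructed kidneys wholly above contralateral ones, among them the 3 members. This kidney was left out after its values were seen. Without kidney 2 of both groups the 3 tested members again rose, beside 18.9% of all tested miRNAs called higher and 48.6% called in either direction.

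mmu-miR-142-5p, the other strand of that hairpin, was well above background on 0 of 4 contralateral arrays and on 3 of 4 obstructed arrays. The dimmest detected probe of an array lay at 0.0195 to 0.0238 on contralateral and at 0.00711 to 0.0204 on obstructed arrays. Detection thus reached lower scaled signals on some obstructed arrays, which limits such counts here and for miR-150 and miR-342-5p. miR-142-5p measured 0.104, 0.125 and 0.0709 in obstructed kidneys 1, 3 and 4 and 0.0181 in obstructed kidney 2. The contralateral kidneys lay between 0.0139 and 0.0319, with kidney 2 the highest, as for miR-142-3p. Against a bound on the contralateral level, the obstructed level was 2.68-fold higher, and 4.08-fold higher without obstructed kidney 2. The bound is the highest on each contralateral array of the measured signal, the dimmest detected probe and the floor of 0.0213. It was set against the obstructed mean with no floor. The dimmest detected probe is a single probe, while the signals are summed over probes, so these folds are not strict lower limits. With all values under the floor set to it, the mean log2 signals were -3.91 in obstructed and -5.41 in contralateral kidneys. This put 3 of 4 contralateral kidneys at 1 value, so the p-values below rest on a smaller spread than was measured. Among the 308 miRNAs over the floor on at least 1 array it was not called (limma adjusted p = 0.104), beside 12.3% of these miRNAs called in either direction and 0.974% called higher. It was called higher without obstructed kidney 2 (limma adjusted p = 0.00132), beside 18.4% of the 305 then tested called higher and 42.3% called in either direction.

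mmu-miR-150, the member of mature lymphocytes, was near the detection limit. It measured 0.0175, 0.0225, 0.0147 and 0.0225 in contralateral kidneys 1 to 4, and only kidney 4 was above background. It measured 0.0338, 0.0167, 0.0550 and 0.0315 in obstructed kidneys 1 to 4, and kidneys 1, 3 and 4 were above background. Of its 2 probes, 1 was above background on 4 arrays and the other on 0. The log2 change was 0.61 ± 0.26 (SE, n = 4 each, limma adjusted p = 0.165 over the 308 miRNAs). Values under the floor were set to it in this fit, which understates this change. The floor also put 2 of 4 contralateral kidneys at 1 value. The spread behind the p-values with and without obstructed kidney 2 is therefore smaller than the measured spread. Without obstructed kidney 2 the change was 0.83 ± 0.20 (limma adjusted p = 0.0165), a call that ended when all 611 miRNAs entered the fit (limma adjusted p = 0.0683; 4.26% called higher and 12.4% in either direction). miR-511, the member within the macrophage gene Mrc1, was above background on 0 of 8 arrays with each of its 4 probes, at scaled signals between -0.00333 and 0.0115. No fold is given for it, and at this signal no difference could be detected.

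The probes of each of the 3 tested members gave like changes, although their signals differed. For example, those of miR-223 measured 0.212 and 0.685 in contralateral kidney 1. The 2 probes of miR-223 changed by 1.35 and 1.48 on the log2 scale, those of miR-142-3p by 1.32 and 1.29, and those of miR-342-3p by 1.47 and 1.45. Each probe was printed as 10 spots per array, whose median coefficient of variation was between 4.88% and 14.0% for these 6 probes. Obstructed kidney 2 was the lowest obstructed array with both probes of each miRNA.

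The strand opposite miR-342-3p gave a further view of the Mir342 hairpin. miR-342-5p (chr12:108658638-108658659, + strand), with its seed in capitals, is
miR-342-5p: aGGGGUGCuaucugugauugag
Contralateral arrays gave no signal above background, whereas 3 of 4 obstructed arrays did, at 0.0274, 0.0234 and 0.0251 in obstructed kidneys 1, 3 and 4. It was at -0.00779 in obstructed kidney 2 and between 0.00106 and 0.00343 in contralateral kidneys. For both strands obstructed kidney 1 was the highest and kidney 2 the lowest of the obstructed arrays. For miR-150*, the other strand of the miR-150 hairpin, obstructed kidneys 2 and 4 were the arrays above background, at 0.0549 and 0.0468, which is not the order of miR-150.

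Changes were compared between members within each array, for 3 pairs. The log2 difference of miR-142-3p minus miR-342-3p was 3.14 in contralateral kidney 2 and 2.55 in obstructed kidney 2, and between 0.26 and 0.66 on the other 6 arrays of both groups. Over 8 arrays this difference changed by -0.15 with obstruction (exact permutation p = 0.743, two-sided, adjusted 0.743). The difference was thus highest in kidney 2 of both groups, and the groups overlapped among the other arrays. The pair of strands miR-142-3p and miR-142-5p differed in change by -0.19 (exact permutation p = 0.514, adjusted 0.743). This value is limited by the floor, at which miR-142-5p lay on 4 arrays.

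The change of miR-223 exceeded that of miR-150 by 0.84 on the log2 scale (exact permutation p = 0.143, adjusted 0.429; the smallest p that 70 assignments allow is 0.0286). It was 2.21 with normexp, an alternative background correction (exact permutation p = 0.114, adjusted 0.114), and 1.18 without obstructed kidney 2 (exact permutation p = 0.0286, adjusted 0.0857, the smallest p that 3 against 4 arrays allow). miR-223 minus miR-150 was between 5.34 and 5.56 in contralateral kidneys and 6.87, 5.26, 6.12 and 6.90 in obstructed kidneys 1 to 4. The floor raises miR-150 on 3 arrays, and a missed threshold does not show that the members of a pair changed alike.

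Other immune-cell miRNAs were read from a list of 8, of which 7 were tested. On 8 arrays 0 of 7 were called (limma, 2 at an unadjusted p under 0.05), beside 1.35% of all tested miRNAs called higher, with a median change of 0.67. Without obstructed kidney 2, 5 of 7 rose, beside 20.7% of all tested miRNAs called higher. Their median was 0.94, against -0.17 for all tested miRNAs. miR-146b, induced by inflammatory signalling, changed by 2.10 ± 0.90 on 8 arrays and rose by 3.11 ± 0.22 without obstructed kidney 2 (SE, limma adjusted p = 0.130 and 0.000243). It measured 0.808, 0.0461, 0.700 and 0.745 in obstructed kidneys 1 to 4 and between 0.0595 and 0.107 in contralateral kidneys. miR-146a changed by 0.67 ± 0.30 on 8 arrays and rose by 0.94 ± 0.20 without obstructed kidney 2 (limma adjusted p = 0.149 and 0.00807). miR-155, made in activated lymphocytes and macrophages, changed by 1.35 ± 0.58 on 8 arrays and rose by 1.98 ± 0.21 without that kidney (limma adjusted p = 0.130 and 0.000708). In the miR-181 family, known from developing lymphocytes, miR-181b and miR-181d rose without it, by 0.74 ± 0.15 and 1.07 ± 0.23 (limma adjusted p = 0.00716 and 0.00868), while miR-181a was at 0.29 ± 0.17 (limma adjusted p = 0.184) and miR-181c at 0.39 ± 0.14 (limma adjusted p = 0.0542). miR-147 was above background on no array.

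**Figure D3:**
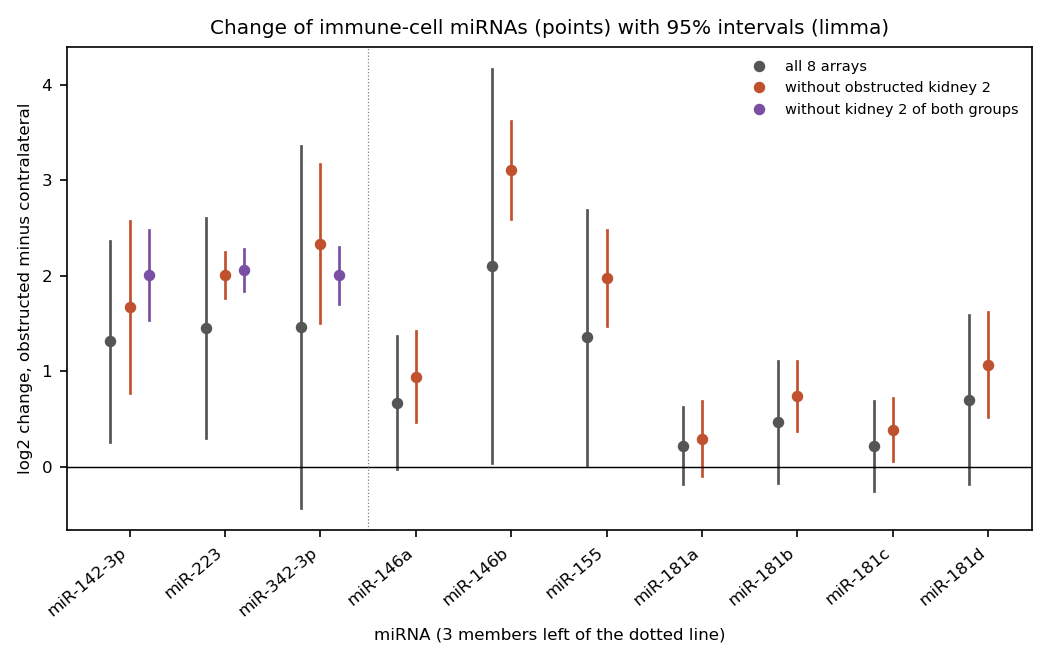
Log2 change of obstructed minus contralateral kidneys for the 3 tested members (left of the dotted line) and 7 other immune-cell miRNAs; points are limma estimates and lines their 95% intervals, with all 8 arrays, without obstructed kidney 2 and, for the members, without kidney 2 of both groups. With all arrays the interval of miR-342-3p runs from -0.44 to 3.36, and without kidney 2 of both groups the 3 members lie at 2.01, 2.06 and 2.01.

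Markers of other cells moved beside the members. The summed scaled signal of the 6 members was 1.33 to 1.84 in contralateral kidneys and 6.09, 1.29, 5.89 and 5.33 in obstructed kidneys 1 to 4. The 5 miRNAs of fibroblasts and smooth muscle summed to 4.31 to 5.60 in contralateral kidneys and to 14.5, 3.44, 10.3 and 13.0 in obstructed kidneys 1 to 4. In both sums obstructed kidney 2 was the lowest of all 8 arrays. Of these 5, 4 were tested and 0 were called on 8 arrays (limma, 1 at an unadjusted p under 0.05), and 3 rose without obstructed kidney 2, beside 1.35% and 20.7% of all tested miRNAs called higher. The 3 were miR-199a-3p, miR-199a-5p and miR-214. By contrast, miR-143 was at 0.31 ± 0.15 without that kidney (SE, limma adjusted p = 0.133). miR-145 was not tested, with a mean of 0.0398 in contralateral and 0.0346 in obstructed kidneys. The sum of the tubule miRNAs ran the other way from that of the members, at 11.6 to 17.1 in contralateral and 4.37 to 8.65 in obstructed kidneys. Here obstructed kidney 2, at 8.65, still lay below every contralateral kidney. Most of this sum was miR-192, with a mean of 11.9 in contralateral and 5.09 in obstructed kidneys. Of the 3 tested tubule miRNAs, 2 fell, miR-192 and miR-194, beside 13.5% of all tested miRNAs called lower. The third, miR-204, was at -0.12 ± 0.25 (SE, limma adjusted p = 0.755). The endothelial miRNAs summed to 12.1 to 15.2 and 9.57 to 13.2. Nearly all of that was miR-126-3p, which was not called (-0.30 ± 0.15, SE, limma adjusted p = 0.201). The dim miR-126-5p, with means of 0.146 and 0.0840, fell, beside the same 13.5%. The erythroid sum was 5.16 to 44.6 in contralateral and 5.15 to 24.4 in obstructed kidneys, and 0 of its 2 tested members were called (limma, 0 at an unadjusted p under 0.05). The part of these cells in the members' change was not tested.

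The tested miRNAs with the array pattern most like the members were ranked by the root mean square difference from the members' median profile, over 8 arrays and on the log2 scale relative to the contralateral mean. With 3 tested members that profile was the one of miR-223. The nearest of the 219 other miRNAs were miR-214 at 0.19, miR-155 at 0.22, miR-199a-5p at 0.33, miR-199a-3p at 0.35 and miR-877 at 0.40, against a median of 1.37 over all 219. miR-214, miR-199a-5p and miR-199a-3p are on the fibroblast and smooth muscle list, and miR-155 is on the immune list. miR-877 is on none of the lists. Unlike the tested members, miR-877 was called higher on 8 arrays (1.44 ± 0.30, SE, limma adjusted p = 0.0213), beside 1.35% of all tested miRNAs. For comparison, the members miR-142-3p and miR-342-3p lay at 0.47 and 0.61 from the same profile, and at 1.05 from each other. Of the obstructed kidneys, kidney 2 was the lowest for each of the 5, at 0.64 for miR-877 and between -0.69 and -0.094 for the other 4, relative to the contralateral mean.

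The 8 arrays lay in 2 rows of 1 slide, and each row held 2 kidneys of each group. In slide row 1, with kidneys 1 and 2, the log2 changes of miR-142-3p, miR-223 and miR-342-3p were 0.79, 0.88 and 1.03, and none was called (limma adjusted p = 0.925, 0.925 and 0.928). In that row 0 of the 222 tested miRNAs were called (limma, 1 at an unadjusted p under 0.05). In slide row 2, with kidneys 3 and 4, they were 1.84, 2.02 and 1.89, and all 3 were called (limma adjusted p = 0.0349, 0.0132 and 0.0132, n = 2 each), beside 9.01% of all tested miRNAs called higher and 31.1% called in either direction. The difference between rows was not tested, and row 1 holds both arrays with high erythroid signal.

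**Figure D4:**
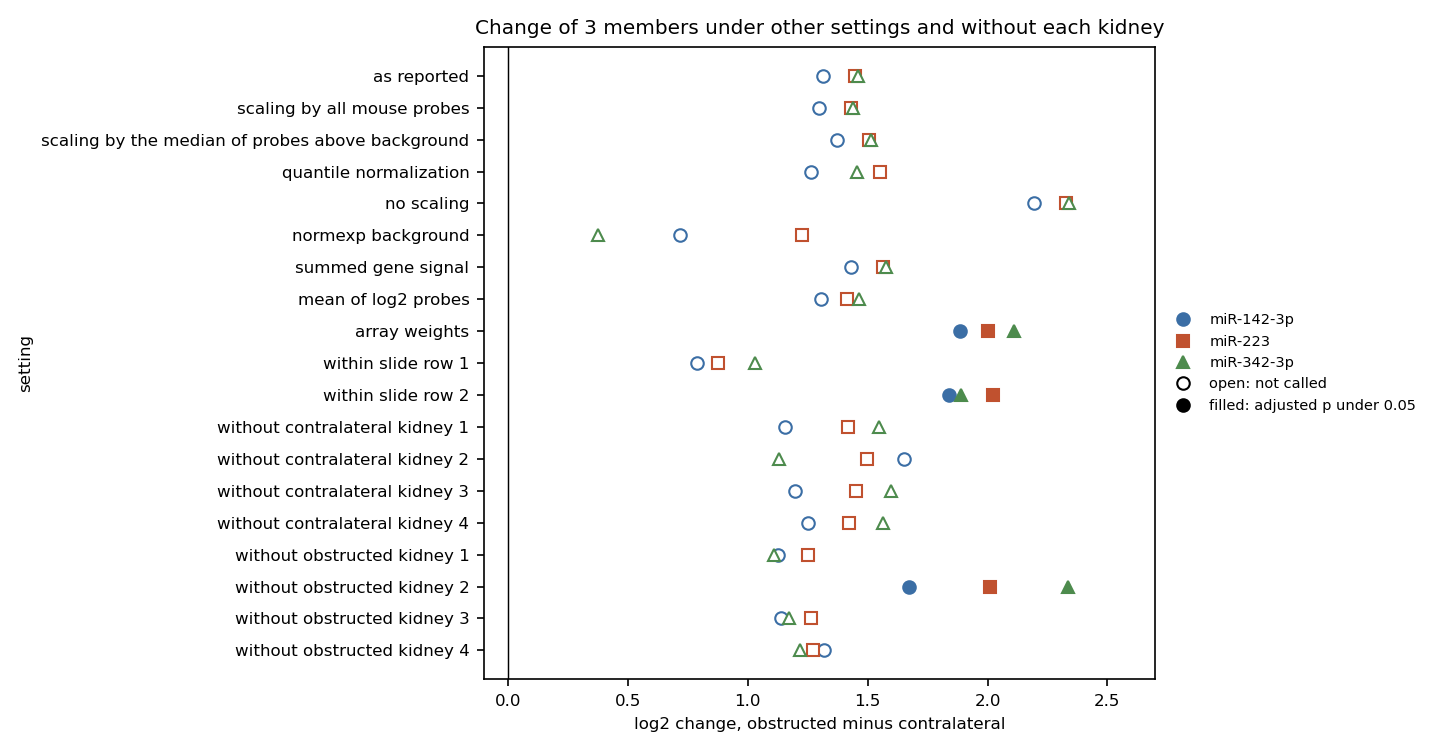
Log2 change of obstructed minus contralateral kidneys for miR-142-3p, miR-223 and miR-342-3p under each scaling, background or summary setting, within each slide row and without each kidney in turn; filled symbols have a limma adjusted p under 0.05. All values lie above 0, and filled symbols appear with array weights, within slide row 2 and without obstructed kidney 2. Slide row 2 does not hold obstructed kidney 2, and array weights gave that kidney the lowest weight, 0.114.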

How the data were processed

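RNA of 8 kidneys was hybridised singly to Agilent 1-colour mouse miRNA arrays, all on 1 slide. The deposited intensities are background-subtracted spot signals, not scaled between arrays, per the file headers. Agilent Feature Extraction made them; the file headers give its version as 10.7.3.1, while the submitters' processing notes name 10.1.1. The authors' files also hold other columns, which mark each spot as outlier, saturated or above background. The deposited series matrix equals the processed intensities.

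Outlier spots were left out and spots of a probe averaged. Signals were scaled to the array's 75th percentile of the 371 probes that all arrays detected, probes of a miRNA were summed, a floor of 0.0213 was set and log2 taken. A change is therefore relative to the bright miRNAs of the array. Those percentiles were 417 to 582 in contralateral and 514 to 1595 in obstructed kidneys. The 222 miRNAs detected in every kidney of 1 or both groups were compared with limma 3.58.1 in R 4.3.3, two-sided, Benjamini-Hochberg adjusted over all 222. Dim members were fitted among miRNAs over the floor on at least 1 array, a choice made after seeing the data. Differences between members used exact permutation tests. A bound sets the bright group's mean against, per array, the highest of the dim signal, the lowest probe signal above background and the floor, as means of log2.

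Named are the 6 members, the fixed lists of immune-cell and other marker miRNAs, and the 5 miRNAs nearest in pattern. Members and lists were chosen with earlier results of these data known. The fit was tested on simulated data. The mean signal column was not in the files used, so normexp, an alternative background correction, ran on median spot signals with an offset of 50.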

Additional observations from a re-analysis of the deposited data

Results flagged for a closer look

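The values of 3 members lay far from the other samples of their group, by the gap to the nearest value as a share of the group's range, with a critical value of 0.829 for 4 samples. Chance flags about 1 in 20 groups, and the members share the same arrays. Obstructed kidney 2 was the low sample for miR-223 (0.972) and for miR-342-3p (0.911). Contralateral kidney 2 was the low sample for miR-342-3p (0.891) and the high sample for miR-142-5p, where the share was 1 because the other 3 contralateral kidneys were at the floor.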

How the results depend on the processing

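Over all 8 arrays, 0 of the 3 tested members were called under each scaling, background, summary and filter tried and with the slide row as a block. The exception was array weights (3 members, 138 miRNAs in all). The fit within slide row 2, on 2 kidneys of each group, also called 3 members (69 miRNAs in all). Calls among all miRNAs, 33 as reported, were 0 with scaling by all mouse probes, with normexp and within slide row 1, 3 with quantile normalization, no scaling, the summed gene signal or the unscaled series matrix, 13 with scaling by the median and 17 of 611 with no filter. The log2 change kept its direction in all 15 of these settings with 8 arrays, at 0.72 to 2.19 for miR-142-3p, 1.23 to 2.33 for miR-223 and 0.38 to 2.34 for miR-342-3p, with limma adjusted p from 0.000798 to 0.294, 0.000193 to 0.294 and 0.00126 to 0.724. The filter, floor and block settings could not move the log2 changes of the 3 members, and the series matrix repeated the values of no scaling. Their agreement in direction therefore adds nothing. The median of all tested miRNAs moved to 0.74 without scaling and to -0.62 with normexp.

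Leaving out 1 kidney at a time gave 0 to 3 members called, and 0 to 113 miRNAs in all; 3 members and 113 miRNAs came without obstructed kidney 2. With the replicate block 0 members and 0 miRNAs were called. With each group's mean subtracted, same-numbered kidneys correlated at -0.35, 0.22, 0.62 and 0.015. Contralateral kidneys 2 and 3 correlated best with the obstructed kidney of their own number, while kidneys 1 and 4 did not. These values do not settle whether the numbers mark shared mice, and the labels do not say, so the numbers were not taken to pair the samples.

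Chosen after seeing the data, obstructed kidney 2 was left out together with other settings. The 3 members were then called with scaling by all mouse probes (72 of 222 miRNAs in all, 33 higher) and by the median (86, 37 higher). They were also called with quantile normalization (100, 49 higher), the summed gene signal (105, 48 higher) and the mean of log2 probes (110, 43 higher). The same held without contralateral kidney 2 as well (108, 42 higher). No scaling and the series matrix, which gave the same values, also called them, but there 113 of the 115 called were higher. The median change of all tested miRNAs was then 1.01. With normexp 1 member was called (33 in all, 7 higher). There miR-223 rose by 1.73 (limma adjusted p = 0.0041), while miR-142-3p was at 0.96 (0.124) and miR-342-3p at 0.77 (0.149). With no filter 3 were called, miR-142-5p, miR-223 and miR-342-3p (76 of 611 in all, 26 higher), and miR-142-3p was not. Over the floor on at least 1 array 5 were called (129 in all; 38 on 8 arrays).

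The difference between miR-142-3p and miR-142-5p turned to 1.31 with normexp and ranged from -0.38 to 0.0060 when 1 kidney was left out, above 0 without contralateral kidney 2. That between miR-142-3p and miR-342-3p turned to 0.34 with normexp and ranged from -0.67 to 0.52, above 0 without contralateral kidney 2 (0.52), obstructed kidney 1 (0.017) or obstructed kidney 4 (0.0997), and was 0.0027 without kidney 2 of both groups. The cause of these turns was not tested. The difference between miR-223 and miR-150 stayed above 0 in each setting run, at 2.21 with normexp and 0.63 to 1.18 when 1 kidney was left out. Signal over background limits miR-142-5p, miR-150 and miR-511.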
